A study of Mus musculus with 12 samples.

Results

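The 33 genes described here code for the NRF2 antioxidant system. Among them are the transcription factor NRF2 and its inhibitor KEAP1, the enzymes that make and use glutathione, and the thioredoxin and peroxiredoxin enzymes. The others are enzymes of the pentose phosphate pathway and of NADPH supply, heme and ferritin genes, catalase and the superoxide dismutases, and 3 further NRF2-linked genes. All 33 were taken by gene symbol from a table of 54532 genes, and each symbol stood in 1 row. They were measured by RNA-seq in cultures of the mouse colorectal tumour line MC38, with 3 libraries in each of 4 groups. Control cultures are labelled only as such, nintedanib cultures received 3 µM of the drug, radiation cultures received 8 Gy of X-rays, and combination cultures received both. Drug and irradiated cells were taken at 24 hours according to the labels, which state no hour for controls. Nintedanib is a kinase inhibitor that blocks receptors for PDGF, FGF and VEGF. The labels say the experiment was repeated independently, and all groups come from 1 cell line. The design asks what the drug and the X-rays each changed in these genes, and whether the drug acted the same way in irradiated cells.

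NRF2, encoded by Nfe2l2, is bound by KEAP1 in unstressed cells and handed to the proteasome. Oxidants and electrophiles modify cysteines of KEAP1, NRF2 then escapes, pairs with small MAF proteins and binds antioxidant response elements in the DNA of its target genes. Its targets supply glutathione, the main small thiol of the cell, thioredoxin, which reduces protein disulfides, and the NADPH that keeps both reduced. Radiation produces reactive oxygen species, and many tumour cells hold this system at a high level.

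Levels below are FPKM, fragments per kilobase of gene model with a scaling per library, so they can be set beside each other between genes. How the authors scaled each library is not given in the sources used here, and small shifts between groups depend on it. Differences were tested with limma on log2(FPKM + 1), a scale on which genes of low FPKM show less than their full change, with Benjamini-Hochberg adjustment across the 13012 genes with at least 1 FPKM in at least 3 libraries. A gene is said to have risen or fallen where its adjusted p was under 0.05. Means are given ± SD over 3 libraries, and a signed value in brackets without another name is a log2 fold change on that scale. Of the 33 genes, 32 were tested. The plasma glutathione peroxidase Gpx3 was too low, at 0.0311 to 0.443 FPKM. The glutathione transferase Gsta4 reached 1 FPKM in the 3 combination libraries and in 1 radiation library, so it was tested through a group in which it is high. In bulk RNA, more cells with a transcript and more transcript per cell cannot be told apart.

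Libraries held 16103528 to 18196615 fragments, and the 31 tested genes other than Gsta4 rested on at least 60 fragments in every library. The third nintedanib library had the highest mitochondrial share, 2.12% against 1.23 to 1.64% in the others, and the lowest share of genes under 200 bases, 0.0291% against 0.101 to 0.212%. Without it, 16 antioxidant genes in place of 15 were called for nintedanib against control. The cell type markers were mixed for a carcinoma line. Epcam, an epithelial adhesion gene, had 0 FPKM in each of the 12, while the epithelial cadherin Cdh1 was at 4.12 to 8.73 FPKM. Of the mesenchymal markers, Vim averaged 579 ± 35.9 FPKM in controls (SD, n = 3), Col1a1 was at 1.73 to 2.84 FPKM and Thy1 did not exceed 0.0944. The 6 mesenchymal markers summed to 1332 to 1451 FPKM in controls, 1517 to 1649 with the drug, 1323 to 1431 with radiation and 1517 to 1703 with both. Within this sum, Sparc averaged 712 FPKM in controls and 893 with nintedanib, Col1a2 59.5 and 115, and Fn1 50.7 and 54.9. Vim went the other way, averaging 579 FPKM in controls and 533 with nintedanib, and the mean of Col1a1 was slightly lower. The 7 leukocyte markers summed to 3.86 to 4.79 FPKM in controls, 14.7 to 15.1 with nintedanib, 4.95 to 5.84 with radiation and 17.4 to 20.1 with both. Nearly all of this was Cd68, a lysosomal membrane protein (4 FPKM in controls and 14 under nintedanib), while the pan-leukocyte gene Ptprc did not exceed 0.0292 FPKM and Cd3e was at 0. The 9 epithelial markers, mostly Cdh1 and Krt19, summed to 5.04 to 5.88 FPKM in controls, 6.48 to 9.53 with the drug, 6.83 to 7.19 with radiation and 11.4 to 13.7 with both, and the part of these shifts in the results was not tested.

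The antioxidant response element is the DNA sequence that ties these genes to NRF2, so its core was looked for next to their start sites. RefSeq promoter windows (GRCm38.p6), 250 bases before to 50 after a transcription start, were at hand for 28 of the 33 genes, 36 windows in all. The core searched was TGACNNNGC on both strands, a pattern that includes TGACTCAGC, in which the AP-1 element TGACTCA is contained. It was present for 10 of 28 genes (35.7%), against 14.0% of all 27025 genes with windows; by windows it was 10 of 36 (27.8%) against 12.4% of 32851. A match is a description of letters and not of a bound site, and windows without one say nothing about elements farther away. The 10 matches are shown with 10 bases on each side, read 5′ to 3′ on the strand of the element, with the core in capitals.
Mgst1: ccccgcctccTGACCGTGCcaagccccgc
Prdx1: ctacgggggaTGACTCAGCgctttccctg
Me1: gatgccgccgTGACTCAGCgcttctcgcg
Pgd: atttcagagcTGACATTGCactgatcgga
G6pdx: gcgtgtgcttTGACTGAGCtgacccgcct
Sod1: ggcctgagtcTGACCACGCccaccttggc
Srxn1: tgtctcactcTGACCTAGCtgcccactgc
Gclm: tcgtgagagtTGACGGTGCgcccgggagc
Nfe2l2: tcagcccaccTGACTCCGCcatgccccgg
Txnrd1: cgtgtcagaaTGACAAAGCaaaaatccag

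The core of Prdx1 and that of Me1 were the same, TGACTCAGC, and both contain the AP-1 element; the other 8 cores differed from these and from each other. With nintedanib, 4 of the 10 genes that hold the core rose (Mgst1, Prdx1, Me1 and Pgd), 2 fell (Nfe2l2 and Txnrd1) and 4 were not called (G6pdx, Sod1, Srxn1 and Gclm). Of the 17 tested genes whose windows lack it, 5 rose and 2 fell. Over all genes tested 19.7% rose and 22% fell. Genes with a match, genes without one and all genes were thus each called in both directions after the drug. Some genes have several annotated starts: the match was in 1 of 3 windows of Txnrd1, 1 of 2 of Mgst1, Me1 and Pgd, and in the 1 window of Prdx1. For Txnrd1 and for Pgd the window with the match lies inside the gene model, and the one at the start of the model has none. The cores of Pgd and Srxn1 lie after the transcription start of their window. The 250 bases before the start that has the match are shown for the gene of this group with the largest rise, a thioredoxin-linked gene that rose and one that fell, read 5′ to 3′ on the strand of the gene, with the core in capitals (here seen from the opposite strand).
Mgst1 (chr6:138140277-138140526, plus strand): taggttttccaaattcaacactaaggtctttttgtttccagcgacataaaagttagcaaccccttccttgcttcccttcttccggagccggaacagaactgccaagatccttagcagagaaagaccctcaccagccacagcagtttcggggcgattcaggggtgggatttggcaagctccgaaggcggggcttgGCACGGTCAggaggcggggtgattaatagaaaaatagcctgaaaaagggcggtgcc
Prdx1 (chr4:116685349-116685598, plus strand): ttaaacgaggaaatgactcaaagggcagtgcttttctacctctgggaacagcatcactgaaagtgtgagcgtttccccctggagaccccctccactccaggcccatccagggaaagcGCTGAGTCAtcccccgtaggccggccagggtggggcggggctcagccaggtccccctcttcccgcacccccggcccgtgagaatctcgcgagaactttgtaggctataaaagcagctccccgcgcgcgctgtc
Txnrd1 (chr10:82858956-82859205, plus strand): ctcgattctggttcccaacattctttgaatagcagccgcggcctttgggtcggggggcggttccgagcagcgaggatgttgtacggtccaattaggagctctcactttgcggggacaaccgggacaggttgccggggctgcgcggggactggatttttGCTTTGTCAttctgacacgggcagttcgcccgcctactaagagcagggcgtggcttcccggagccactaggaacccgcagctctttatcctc

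With nintedanib against control, these genes were called in both directions, as were all genes tested. Glutathione transferases (Mgst1, Gstm1), the peroxiredoxin Prdx1, catalase, ferritin light chain, the NADPH-producing enzymes Me1 and Pgd and the transaldolase Taldo1 rose. Nfe2l2 itself, the glutathione synthesis enzyme Gclc, thioredoxin reductase Txnrd1, the transferase Gsto1, Osgin1 and the exporter Abcc1 fell. Nqo1, a classical NRF2 target, rose slightly. In all, 15 of 32 genes were called, a share of 46.9% against 41.6% of all genes tested. The 9 higher and 6 lower genes stand beside 19.7% higher and 22% lower over all genes. Their median log2 fold change was 0.06, against -0.02 over all genes. In 18 of the 32 the nintedanib and control libraries did not overlap (51.1% of all genes). The split between directions was not stable: 6 rose and 8 fell without nintedanib library 1, and 6 rose and 6 fell without control library 1 or with no filter on low values. With FPKM rescaled to a common sum per library, 12 rose and 5 fell, beside 3050 and 2034 over all genes (2559 and 2860 before rescaling).

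Radiation against control moved fewer of them. Gclc, the glutathione synthetase Gss and Gsto1 fell, and Nqo1, Osgin1 and Mgst1 rose. That is 6 of 32 genes, or 18.8%, against 17.9% of all genes tested, and so near the background. The 3 higher and 3 lower genes stand beside 8.04% higher and 9.9% lower over all genes, and 14 of the 32 had no overlap between groups (41.8% of all genes). The median log2 fold change was -0.09, against -0.04 over all genes. The count was 3 without control library 2, without radiation library 2 or without radiation library 3.

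The combination against control called 19 of 32 genes, or 59.4% against 47.2% of all genes tested. Of these, 14 were higher and 5 lower, beside 22.3% and 25% of all genes, and 22 of the 32 had no overlap between groups (56.8% of all genes). The genes that rose were Mgst1, Gstm1, Gsta4, Gpx1, Prdx1, Me1, Taldo1, Pgd, G6pdx, Ftl1, Blvrb, Cat, Sod1 and Nqo1. These counts include Gsta4, which passed the filter on low values only through the combination libraries, so its call is no separate support. Those that fell were Gclc, Gss, Gsto1, Txnrd1 and Abcc1. Against radiation alone, the combination called 14 genes, or 43.8% against 34.4%. The 13 higher and 1 lower stand beside 17.2% and 17.3% of all genes, and 21 had no overlap (47.4%). Against nintedanib alone, it called 2 genes, Nqo1 and Osgin1, or 6.25% against 5.55%. The 2 higher and 0 lower stand beside 3.17% and 2.37% of all genes, and 5 had no overlap (22.2%). That count ranged from 0 to 3 when 1 library was left out: it was 0 without combination library 2, and 1 without nintedanib library 2, radiation library 1 or 2 or combination library 3.

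**Figure D1:**
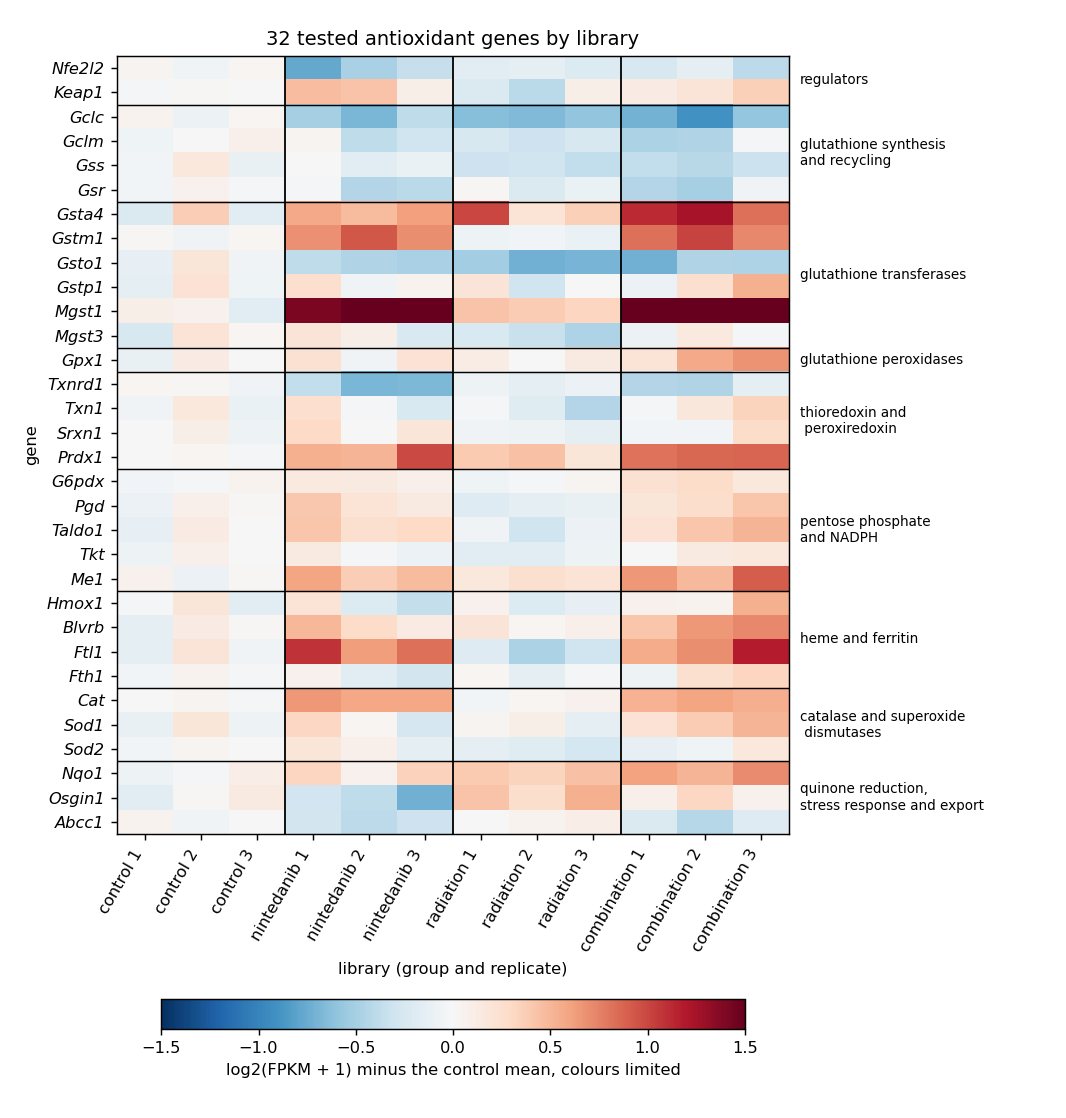
Log2(FPKM + 1) minus the control mean for the 32 tested genes (rows, grouped by role) in the 12 libraries (columns), with a limited colour range. Red rows such as Mgst1 and Gstm1 mark the nintedanib and combination libraries, and Gclc and Gsto1 are blue in all 9 treated libraries.

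By branch, the pentose phosphate and NADPH genes called with the drug all rose, and the glutathione genes were called in both directions. The nintedanib counts of each branch stand beside 19.7% of all genes that rose and 22% that fell. With nintedanib, 3 of 5 pentose phosphate and NADPH genes rose and 0 fell (median log2 fold change 0.25). Of the 4 glutathione synthesis and recycling genes, 0 rose and 1 fell (median -0.25), and of the 6 transferases 2 rose and 1 fell (median 0.32). In the thioredoxin branch 1 of 4 rose and 1 fell (median 0.08). After radiation the same medians were -0.14, -0.30, -0.05 and -0.10. There 0 of 5, 2 of 4, 2 of 6 and 0 of 4 genes were called, against 17.9% of all genes. The combination against radiation raised 5 of 5 pentose phosphate and NADPH genes and 2 of 6 transferases. It raised 1 of 4 thioredoxin genes and 0 of 4 glutathione synthesis genes, against 17.2% of all genes. In the wider pentose phosphate and NADPH list, 2 of 12 tested genes were higher and 5 lower in this comparison. No test of one branch against another was made.

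With nintedanib the transcript of the activator fell, while that of its inhibitor stood above the controls without being called. The amount and activity of NRF2 protein were not measured. Nfe2l2 (ENSMUSG00000015839, chromosome 2, 75675513 to 75704641) stood at 25.7, 23.8 and 25.4 FPKM in the 3 controls, 14.2, 17.6 and 19.4 under nintedanib, 22.2, 22.5 and 21.6 after radiation and 21, 22.6 and 18.8 under both. All 9 treated libraries were below all 3 controls, and the nintedanib group had the lowest mean. The fall passed the test for nintedanib (log2 fold change -0.53, SE 0.101, adjusted p = 0.0015) and missed it for radiation (-0.17, adjusted p = 0.277) and for the combination (-0.26, adjusted p = 0.0564). Keap1 (ENSMUSG00000003308, chromosome 9, 21229730 to 21239361) was at 9.31, 9.54 and 9.53 FPKM in controls, 13.5, 13 and 10.1 under nintedanib, 8, 6.93 and 10.2 after radiation and 10.3, 11 and 12.4 under both. The nintedanib and combination libraries lay above all controls, with the third nintedanib library closest to them (0.33, adjusted p = 0.0616 for nintedanib). The combination exceeded radiation alone (log2 fold change 0.40, SE 0.129, adjusted p = 0.033), a call lost in 7 of 22 other settings (adjusted p up to 0.13), among them those without radiation library 1 or 2 or combination library 2 or 3.

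Glutathione is made in 2 steps, by glutamate-cysteine ligase (catalytic subunit Gclc, modifier subunit Gclm) and by glutathione synthetase (Gss), and is recycled by glutathione reductase (Gsr). Gclc (ENSMUSG00000032350, chromosome 9, 77754535 to 77794485) was at 30.0, 27.2 and 29.4 FPKM in controls, 20.1, 17.5 and 21.8 under nintedanib, 18.2, 17.8 and 18.8 after radiation and 17.2, 14.9 and 18.9 under both. No treated library reached the lowest control. Gclc fell with nintedanib (log2 fold change -0.52, SE 0.0942, adjusted p = 0.00105), with radiation (log2 fold change -0.63, SE 0.0942, adjusted p = 0.00169) and with both (log2 fold change -0.74, SE 0.0942, adjusted p = 8.05e-05). The fall with both was smaller than the sum of the single falls (interaction 0.42, SE 0.133), but that difference missed the threshold (adjusted p = 0.276). Gclm (ENSMUSG00000028124, chromosome 3, 122245557 to 122270732) averaged 16.5 ± 0.923 FPKM in controls and 14.2 ± 2.42, 13.5 ± 0.381 and 13.2 ± 2.66 under nintedanib, radiation and both, and was not called in any comparison. The ratio of Gclc to Gclm FPKM was 1.92, 1.67 and 1.69 in controls, 1.19, 1.42 and 1.66 under nintedanib, 1.33, 1.36 and 1.36 after radiation and 1.5, 1.26 and 1.16 under both, below every control in all 9 treated libraries.

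Gss (ENSMUSG00000027610, chromosome 2, 155563181 to 155592810) was at 3.84, 4.55 and 3.6 FPKM in controls, 4.01, 3.45 and 3.65 under nintedanib, 3.01, 3.04 and 2.85 after radiation and 2.87, 2.75 and 2.98 under both. The 6 irradiated libraries were below the 6 others. It fell with radiation (log2 fold change -0.33, SE 0.0813, adjusted p = 0.0187) and with both (log2 fold change -0.37, SE 0.0813, adjusted p = 0.00324), and with nintedanib it had -0.09 (adjusted p = 0.434). The call for radiation was lost in 4 of 21 other settings (adjusted p up to 0.0784), among them those without control library 2 or radiation library 2 or 3. Gsr (ENSMUSG00000031584, chromosome 8, 33652523 to 33698163) was at 48 ± 1.88 FPKM in controls and 39.3 ± 6.66 under nintedanib, and was not called in any comparison (adjusted p = 0.0993 for nintedanib and 0.0599 for both).

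Glutathione transferases join glutathione to electrophiles. The microsomal transferase Mgst1 (ENSMUSG00000008540, chromosome 6, 138140316 to 138156755) had the largest log2 fold change of the 32 genes. It was at 2.21, 2.18 and 1.73 FPKM in controls, 7.05, 8.73 and 8.04 under nintedanib, 3.07, 2.95 and 2.79 after radiation and 9.04, 11 and 8.26 under both. The drug-treated libraries were far above all others, and the radiation libraries lay just above the controls. Mean FPKM was 3.89-fold that of controls with nintedanib (log2 fold change 1.56, SE 0.107, adjusted p = 1.44e-06), 1.44-fold with radiation (log2 fold change 0.38, SE 0.107, adjusted p = 0.0343) and 4.62-fold with both (log2 fold change 1.77, SE 0.107, adjusted p = 5.11e-07). The call for radiation was lost in 8 of 22 other settings (adjusted p up to 0.126), among them those without any 1 of the control libraries or any 1 of the radiation libraries.

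Gstm1, a cytosolic mu-class transferase (ENSMUSG00000058135, chromosome 3, 108012255 to 108017973), was at 34.8, 33 and 35.1 FPKM in controls, 55.7, 66.2 and 56.3 under nintedanib, 32.6, 33.3 and 31.9 after radiation and 61.7, 70.5 and 57.2 under both. It rose with nintedanib (log2 fold change 0.77, SE 0.0871, adjusted p = 4.25e-05) and with both (log2 fold change 0.86, SE 0.0871, adjusted p = 1.64e-05), and radiation alone left it at -0.07 (adjusted p = 0.618). Gsto1, an omega-class transferase with thiol-transfer activity (ENSMUSG00000025068, chromosome 19, 47854970 to 47864790), went the other way. It was at 191, 235 and 199.9 FPKM in controls, 159.7, 151 and 148 under nintedanib, 145, 126 and 128 after radiation and 125, 151 and 150.3 under both, every treated library below every control. It fell with nintedanib (log2 fold change -0.44, SE 0.101, adjusted p = 0.00464), with radiation (log2 fold change -0.64, SE 0.101, adjusted p = 0.00215) and with both (log2 fold change -0.55, SE 0.101, adjusted p = 0.000983). As for Gclc, the estimated fall with both was smaller than the sum of the single falls (interaction 0.54, SE 0.142). That was the largest interaction value among the 32 genes, but it missed the threshold (adjusted p = 0.224). A departure from additivity was thus not detected for either gene.

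Gsta4, which conjugates the lipid peroxidation product 4-hydroxynonenal (ENSMUSG00000032348, chromosome 9, 78182774 to 78209349), was at 0.0952, 0.639 and 0.137 FPKM in controls, 0.886, 0.756 and 0.95 under nintedanib, 1.55, 0.465 and 0.621 after radiation and 1.76, 1.99 and 1.25 under both. It rested on 2 to 45 fragments a library and was called for the combination (log2 fold change 1.06, SE 0.222, adjusted p = 0.00226), for which it also passed the filter on low values. Gstp1, the pi-class transferase (126 ± 17 FPKM in controls and 149 ± 31.7 under both), and Mgst3 (86.8 ± 13.3 and 68.1 ± 5.69 after radiation) were abundant and not called in any comparison. The mu- and pi-class transferases have near-identical paralogs, and how reads were shared among those is not given in the sources used here. Glutathione peroxidase Gpx1 (ENSMUSG00000063856, chromosome 9, 108338903 to 108340343), a selenoenzyme that reduces hydrogen peroxide, was at 105, 123 and 113 FPKM in controls, 133, 109.5 and 132 under nintedanib, 123, 112 and 125 after radiation and 130.5, 169 and 182 under both. Only the combination libraries lay entirely above the controls, and Gpx1 rose there against control (log2 fold change 0.48, SE 0.124, adjusted p = 0.00767) and against radiation (log2 fold change 0.40, SE 0.124, adjusted p = 0.0272). The latter call was lost in 5 of 22 other settings (adjusted p up to 0.105), among them those without radiation library 1 or 2 or combination library 2 or 3.

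**Figure D2:**
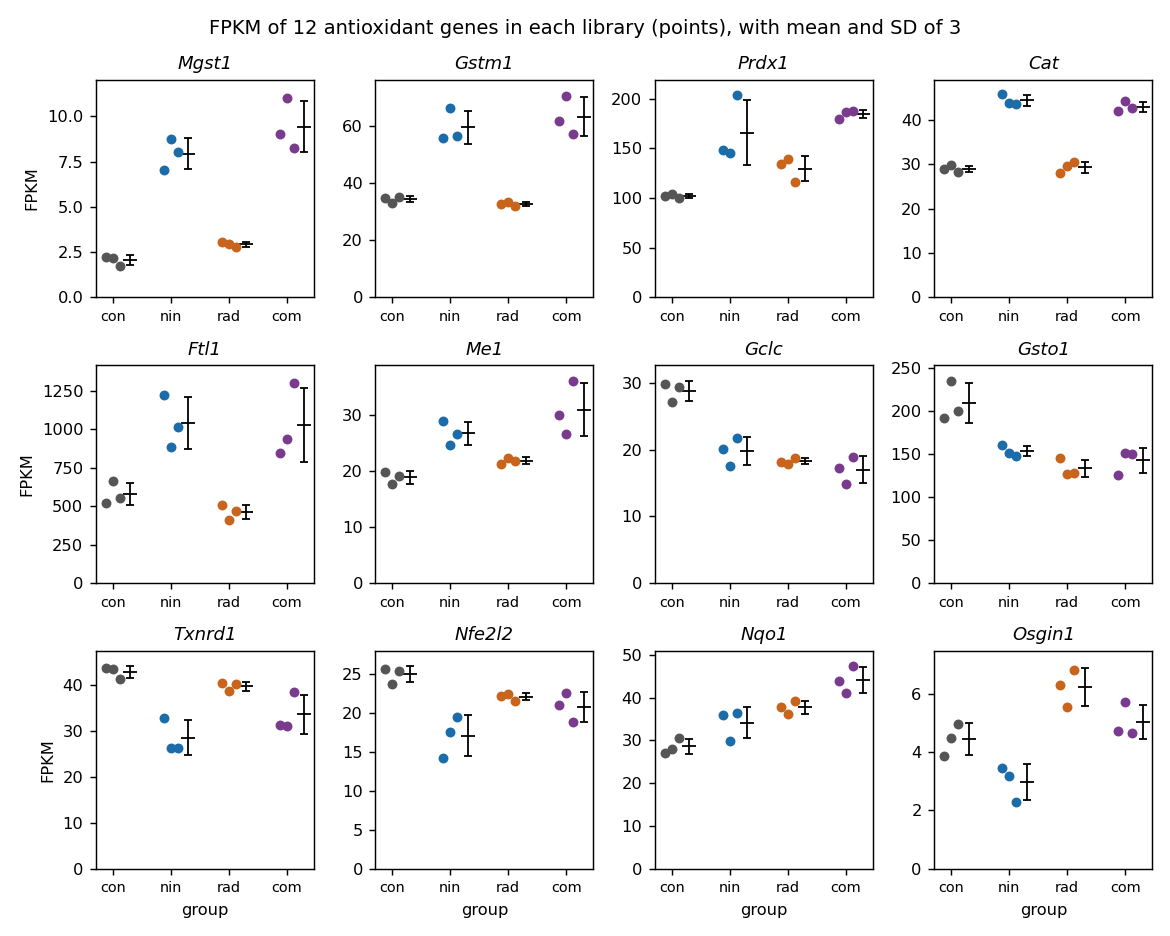
FPKM of 12 genes in each library (points; con, control; nin, nintedanib; rad, radiation; com, combination), with the mean and SD of 3 libraries beside them and axes from 0. Mgst1, Gstm1, Cat and Ftl1 are higher in both drug-treated groups, and Gclc and Gsto1 are lower in all treated groups.

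Thioredoxin reductase and peroxiredoxin moved in opposite directions with nintedanib. Txnrd1, the cytosolic selenoenzyme that reduces thioredoxin (ENSMUSG00000020250, chromosome 10, 82833951 to 82897712), was at 43.8, 43.6 and 41.4 FPKM in controls, 33, 26.4 and 26.4 under nintedanib, 40.5, 38.7 and 40.3 after radiation and 31.4, 31.1 and 38.6 under both. It fell with nintedanib (log2 fold change -0.58, SE 0.0998, adjusted p = 0.000799) and with both (log2 fold change -0.35, SE 0.0998, adjusted p = 0.0143). The latter call was lost in 2 of 22 other settings (adjusted p up to 0.0572), those without combination library 1 or 2. Prdx1, a peroxidase that uses thioredoxin (ENSMUSG00000028691, chromosome 4, 116685544 to 116700822), was at 102, 104 and 99.9 FPKM in controls, 148, 145 and 204 under nintedanib, 134, 139 and 116 after radiation and 179.8, 186 and 188 under both. All 9 treated libraries were above all controls, and the highest value was that of the third nintedanib library. Prdx1 rose with nintedanib (log2 fold change 0.68, SE 0.118, adjusted p = 0.000866) and with both (log2 fold change 0.85, SE 0.118, adjusted p = 0.000147), and with radiation it had 0.34 (adjusted p = 0.0717).

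Thioredoxin itself, Txn1 (ENSMUSG00000028367, chromosome 4, 57943373 to 57956411), was more abundant than either, at 228, 264 and 221 FPKM in controls and 282, 233 and 202 under nintedanib. These overlapped, and Txn1 was not called in any comparison. Nor was Srxn1, which repairs over-oxidised peroxiredoxins (34.9 ± 2.09 FPKM in controls and 39.2 ± 4.08, 32.6 ± 1.09 and 36.7 ± 4.88 under nintedanib, radiation and both).

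The pentose phosphate pathway makes NADPH through glucose-6-phosphate dehydrogenase (G6pdx) and 6-phosphogluconate dehydrogenase (Pgd), and its sugars are rearranged by transaldolase (Taldo1) and transketolase (Tkt). Malic enzyme (Me1) is another cytosolic source of NADPH. Me1 (ENSMUSG00000032418, chromosome 9, 86581371 to 86695953) was at 19.7, 17.6 and 19.1 FPKM in controls, 28.9, 24.7 and 26.5 under nintedanib, 21.1, 22.4 and 21.8 after radiation and 30.0, 26.7 and 36 under both. The groups did not overlap with the controls, and Me1 rose with nintedanib (log2 fold change 0.48, SE 0.0996, adjusted p = 0.00258) and with both (log2 fold change 0.68, SE 0.0996, adjusted p = 0.000216). Taldo1 (ENSMUSG00000025503, chromosome 7, 141392199 to 141402968) was at 55.7, 66.1 and 60.3 FPKM in controls, 80.9, 72 and 74.8 under nintedanib, 58.6, 49 and 56.9 after radiation and 70.4, 80.8 and 86.8 under both. It rose with nintedanib (log2 fold change 0.32, SE 0.0998, adjusted p = 0.0237), a call lost in 4 of 22 other settings (adjusted p up to 0.0932), among them those without control library 1 or 3 or nintedanib library 1, and with both (0.38, adjusted p = 0.00874).

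Pgd (ENSMUSG00000028961, chromosome 4, 149149991 to 149166771) was at 42.1, 47.5 and 45.4 FPKM in controls, 59.7, 51.8 and 49.6 under nintedanib, 39.2, 40.6 and 41.6 after radiation and 51, 54.1 and 60.3 under both. The radiation libraries were all below the controls and the drug-treated libraries all above them. The rise with nintedanib (log2 fold change 0.25, SE 0.0859, adjusted p = 0.0374) was lost in 8 of 22 other settings (adjusted p up to 0.131), among them those without control library 1 or 3, nintedanib library 1 or 2 or radiation library 2. The rise with both (0.29, adjusted p = 0.0172) was lost in 2 of 22 other settings (adjusted p up to 0.0717), those without control library 1 or combination library 3. G6pdx (ENSMUSG00000031400, chromosome X, 74409483 to 74429194), the entry enzyme, was at 42.1, 42.7 and 44.9 FPKM in controls, 48.1, 47.7 and 45.7 under nintedanib, 41.3, 42.8 and 44.6 after radiation and 50.7, 52.5 and 48.1 under both. Its rise with both was small (log2 fold change 0.22, SE 0.0595, adjusted p = 0.0105), and with nintedanib alone it had 0.12 (adjusted p = 0.119). Tkt was not called against control (52.1 ± 2.95 FPKM in controls and 55.9 ± 3.26 under both) and was higher with both than with radiation (0.24, adjusted p = 0.0338). That call was lost in 7 of 22 other settings (adjusted p up to 0.105), among them those without control library 3, radiation library 1 or 2 or combination library 2 or 3. Against radiation, all 5 genes of the branch were higher with both: Taldo1 by 0.52, Me1 by 0.48, Pgd by 0.43, Tkt by 0.24 and G6pdx by 0.23 on the log2 scale; the call of G6pdx was lost after rescaling to a common sum (adjusted p = 0.0652).

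Ferritin stores iron in shells of light (Ftl1) and heavy (Fth1) chains, and heme oxygenase (Hmox1) and biliverdin reductase B (Blvrb) act in heme breakdown. Ftl1 (ENSMUSG00000050708, chromosome 7, 45457944 to 45459884) was at 519, 660.4 and 556 FPKM in controls, 1225, 887 and 1017 under nintedanib, 504, 412 and 469 after radiation and 847, 936 and 1303 under both. It rose with nintedanib (log2 fold change 0.84, SE 0.171, adjusted p = 0.00225) and with both (log2 fold change 0.81, SE 0.171, adjusted p = 0.00238), while the radiation libraries all lay below the controls (-0.32, adjusted p = 0.222). Fth1 (ENSMUSG00000024661, chromosome 19, 9982703 to 9985092) was at 1008, 1081 and 1028 FPKM in controls and 1082, 920.4 and 857 under nintedanib, and was not called in any comparison. The ratio of light to heavy chain FPKM therefore moved from 0.515, 0.611 and 0.541 in controls to 1.13, 0.963 and 1.19 under nintedanib and 0.861, 0.761 and 1 under both, and was 0.476, 0.439 and 0.458 after radiation. The ratios of the 6 drug-treated libraries were all above those of the 6 others. A near copy, Ftl1-ps1, listed as protein-coding in the table, averaged 8.18 FPKM in controls and 16.6 with nintedanib, and how reads were shared between it and Ftl1 is not given in the sources used here.

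**Figure D3:**
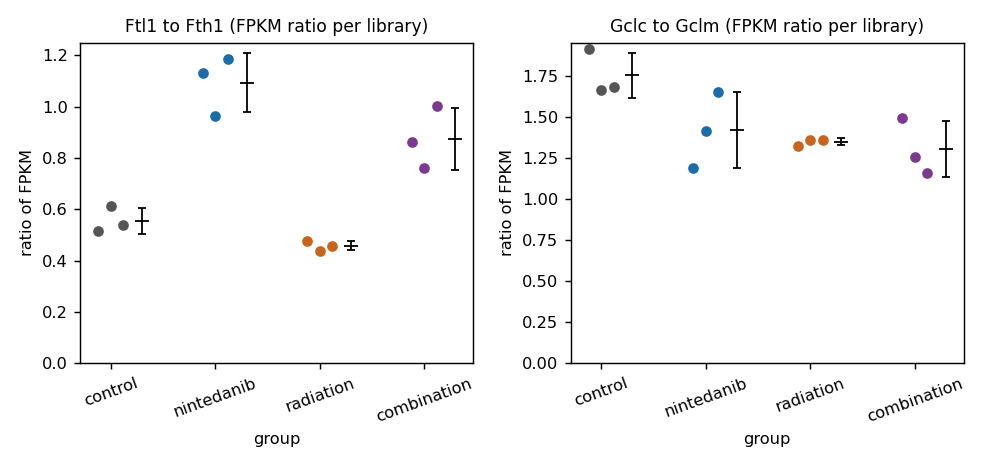
Ratio of FPKM within each library for the ferritin chains (left) and the glutamate-cysteine ligase subunits (right), as points with the mean and SD of 3 libraries, on axes from 0. The light to heavy chain ratio is 0.761 to 1.19 in drug-treated libraries and 0.439 to 0.611 in the others, and the Gclc to Gclm ratio is below the lowest control, 1.67, in all treated libraries.

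Hmox1 (ENSMUSG00000005413, chromosome 8, 75093621 to 75100589), a widely used readout of NRF2 activity, was at 24.8, 28.6 and 22.1 FPKM in controls, 28.9, 21.6 and 19.3 under nintedanib, 26.2, 21.6 and 22.9 after radiation and 26.1, 26 and 36.6 under both. The groups overlapped throughout and no comparison called it. Blvrb (ENSMUSG00000040466, chromosome 7, 27447978 to 27466144) was at 14.3, 17.4 and 16.2 FPKM in controls, 22.8, 19.5 and 17.4 under nintedanib, 18.4, 16.3 and 16.9 after radiation and 21.6, 25.6 and 27 under both. It rose with both (log2 fold change 0.60, SE 0.111, adjusted p = 0.00104), and for nintedanib alone it stood just outside the threshold (0.30, adjusted p = 0.0501).

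Catalase, which breaks down hydrogen peroxide in peroxisomes, was among the most even responses. Cat (ENSMUSG00000027187, chromosome 2, 103453849 to 103485160) was at 29, 29.8 and 28.3 FPKM in controls, 45.9, 43.8 and 43.7 under nintedanib, 28.1, 29.7 and 30.5 after radiation and 42.1, 44.2 and 42.7 under both. The 6 drug-treated libraries spanned 42.1 to 45.9 FPKM and the 6 others 28.1 to 30.5. It rose with nintedanib (log2 fold change 0.60, SE 0.0559, adjusted p = 1.07e-05) and with both (log2 fold change 0.55, SE 0.0559, adjusted p = 1.6e-05), and radiation left it at 0.02 (adjusted p = 0.854). The superoxide dismutases Sod1 (cytosolic) and Sod2 (mitochondrial) were not called for either single treatment. Sod1 averaged 30.9 ± 3.64 FPKM in controls and 40.3 ± 4.21 under both (log2 fold change 0.37, SE 0.139, adjusted p = 0.0446), a call lost in 10 of 22 other settings (adjusted p up to 0.143), among them those without control library 1 or 3, nintedanib library 2, radiation library 1 or 2 or combination library 2 or 3. Sod2 averaged 7.42 ± 0.236 and 7.4 ± 0.896 FPKM.

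The last 3 genes showed 3 patterns. Nqo1, a quinone reductase (ENSMUSG00000003849, chromosome 8, 107388225 to 107403206), was at 27.1, 28 and 30.6 FPKM in controls, 35.8, 29.9 and 36.5 under nintedanib, 37.8, 36.2 and 39.2 after radiation and 43.8, 41.2 and 47.4 under both. It rose with radiation (log2 fold change 0.39, SE 0.0867, adjusted p = 0.0119), with nintedanib (log2 fold change 0.24, SE 0.0867, adjusted p = 0.0427) and with both (log2 fold change 0.61, SE 0.0867, adjusted p = 0.000172), and the combination exceeded nintedanib alone (log2 fold change 0.37, SE 0.0867, adjusted p = 0.0336). The call for nintedanib, whose second library overlapped the controls, was lost in 10 of 22 other settings (adjusted p up to 0.134), among them those without control library 1 or 2, nintedanib library 1 or 3, any 1 of the radiation libraries or combination library 1. The call against nintedanib alone was lost in 9 of 22 other settings (adjusted p up to 0.171), among them those without nintedanib library 2, radiation library 1 or 2 or any 1 of the combination libraries.

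Osgin1, an oxidative stress-induced growth inhibitor (ENSMUSG00000074063, chromosome 8, 119434124 to 119446256), was at 3.87, 4.5 and 4.98 FPKM in controls, 3.46, 3.18 and 2.29 under nintedanib, 6.31, 5.54 and 6.85 after radiation and 4.74, 5.72 and 4.67 under both. It fell with the drug (log2 fold change -0.46, SE 0.126, adjusted p = 0.0121) and rose with radiation (log2 fold change 0.41, SE 0.126, adjusted p = 0.0451), the one gene of the 32 called in opposite directions by the single treatments. With both it was at 0.15 against control (adjusted p = 0.357) and above nintedanib alone (log2 fold change 0.61, SE 0.126, adjusted p = 0.0195). The call for radiation was lost in 13 of 22 other settings (adjusted p up to 0.14), among them those without any 1 of the control libraries, nintedanib library 2, any 1 of the radiation libraries or combination library 1 or 3. The call for the drug was lost without control library 3 (adjusted p = 0.0522), and that against nintedanib was lost in 3 of 22 other settings (adjusted p up to 0.115), among them those without combination library 2.

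Abcc1, the MRP1 pump that exports glutathione conjugates (ENSMUSG00000023088, chromosome 16, 14361558 to 14475737), was at 14.5, 13.5 and 14 FPKM in controls, 11.4, 10.4 and 11.1 under nintedanib, 13.9, 14.5 and 15 after radiation and 11.9, 10.1 and 12.1 under both. It fell with nintedanib (log2 fold change -0.33, SE 0.0729, adjusted p = 0.00404) and with both (log2 fold change -0.28, SE 0.0729, adjusted p = 0.00861), and was the 1 gene that fell with both against radiation (-0.32, adjusted p = 0.00529). The first 2 of these calls were lost after rescaling to a common sum (adjusted p = 0.0537 and 0.0703).

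The effect of nintedanib was measured in 2 sets of libraries that share none: nintedanib against control, and the combination against radiation. Across the 32 genes the 2 sets of log2 fold changes had Pearson's r of 0.928 and the same sign in 28 (87.5%), against 0.751 and 77.1% across all 13012 genes. The 32 genes were not matched to all genes by level, and Mgst1 had the largest value in both sets (1.56 and 1.40). All genes share the same 12 libraries and are not independent replicates, and no p is given. Of the 9 genes that rose with the drug in unirradiated cells, 8 also rose in irradiated cells, and the ninth, Nqo1, had 0.22 (adjusted p = 0.0727). Over all genes 65.9% of those that rose did so in both. Another 5 antioxidant genes, Keap1, Gpx1, G6pdx, Tkt and Blvrb, were called higher in irradiated cells and not in unirradiated ones, so the 8 shared genes are 61.5% of the 13 that rose there (75.6% over all genes). Of the 6 that fell, 1 also fell there, Abcc1 (16.7%, against 60.5% over all genes). The interaction, which tests whether the drug acted differently with and without X-rays, called 0 of the 32 genes by limma and 0 by limma's voom, against 0.00769% of all genes (1 of 13012), with 4 (12.5%) at an unadjusted p under 0.05, against 12.9% of all genes. The interaction values had a median of 0.18 on the log2 scale, against 0.01 over all genes. The largest were those of Gsto1 (0.54), Nfe2l2 (0.44), Gclc (0.42) and Hmox1 (0.42), and a difference between the drug's effects in irradiated and unirradiated cells was not detectable for these genes at this number of libraries.

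**Figure D4:**
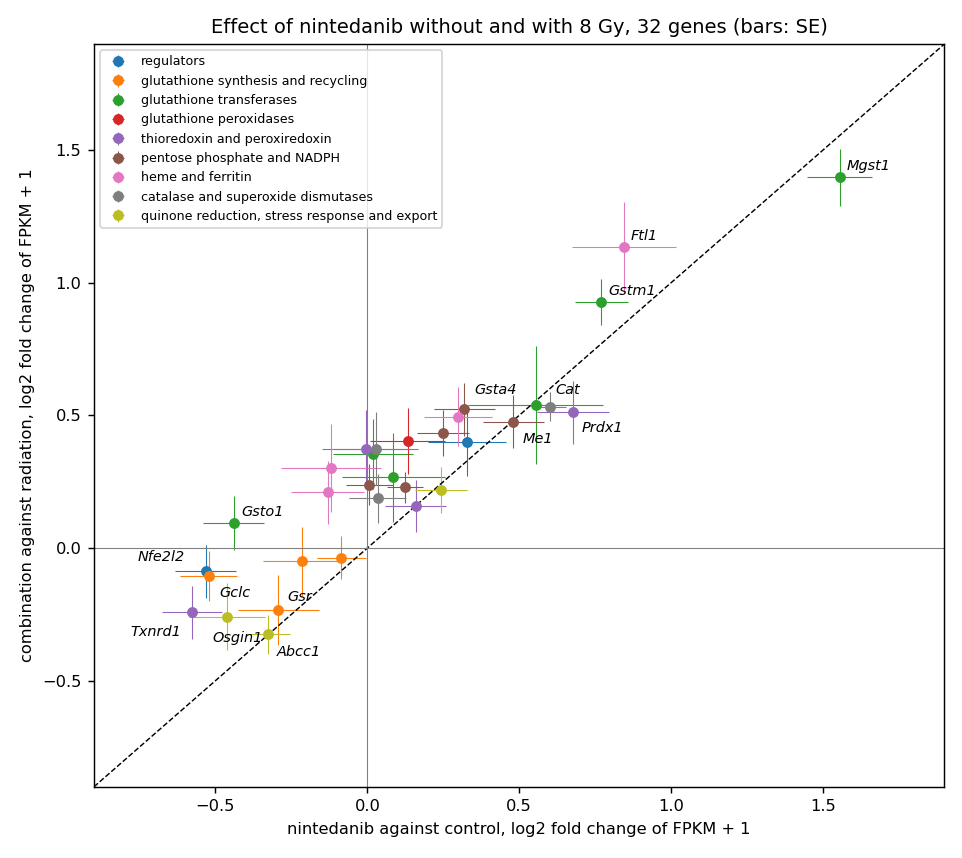
Log2 fold change of FPKM + 1 for nintedanib against control (x axis) and for the combination against radiation (y axis), 32 genes as points coloured by role, with bars of 1 SE and a dashed line of equal effects. Mgst1, Ftl1 and Gstm1 are high on both axes, and Gsto1, Nfe2l2 and Gclc lie above the line, at -0.53 to -0.44 on the x axis and -0.10 to 0.10 on the y axis.

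For radiation, the effect in drug-treated cells (the combination against nintedanib) also shares no library with the effect in cells without the drug. Here the 2 sets of changes had r of 0.748 across the 32 genes and the same sign in 19 (59.4%), against 0.397 and 63.1% over all genes, again not matched by level. Nqo1 and Osgin1 were called in both, and Gclc, Gss, Gsto1 and Mgst1 were called in cells without the drug and not in treated ones, with -0.21, -0.28, -0.11 and 0.22 in drug-treated cells.

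A wider list of 99 genes of the same branches was examined in the same fit, and 78 of them were tested. With nintedanib 23 rose and 23 fell (59.0%, against 41.6% of all genes), and with radiation 10 rose and 10 fell (25.6%, against 17.9%). With both 28 rose and 26 fell (69.2%, against 47.2%). By direction, 19.7% of all genes rose and 22% fell with nintedanib, and 8.04% rose and 9.9% fell with radiation. Each branch count below stands beside these shares. Of the 8 other regulators, 6 fell and 0 rose with nintedanib, among them the small MAF proteins Mafk (17.3 ± 1.05 to 9.98 ± 0.639 FPKM, -0.74) and Mafg (-0.44) and the related factor Nfe2l1 (110.4 ± 7.32 to 65.7 ± 6.35 FPKM, -0.74). With radiation 3 fell and 0 rose, all of them small MAF genes: Mafg (-0.60), Mafk (-0.70) and Maff (-0.57).

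In the wider synthesis and recycling list, 2 of 11 tested genes rose, 4 fell and 5 were not called with nintedanib (median -0.17), and 1 rose and 0 fell with radiation. The 3 with the smallest adjusted p for the drug all fell. The cystine transporter Slc7a11, which brings in the cysteine for glutathione, averaged 6.97 ± 1.04 FPKM in controls and 1.03 ± 0.106 in the nintedanib libraries (log2 fold change -1.97, SE 0.128, adjusted p = 1.02e-06) and was at 7.7 ± 0.359 after radiation and 1.32 ± 0.424 under both. Its partner chain Slc3a2 went from 151 ± 11.6 to 57 ± 8.98 FPKM (-1.40) and the glutathione-degrading enzyme Chac1 from 92.8 ± 9.02 to 31.7 ± 5.59 FPKM (-1.53). A related enzyme, Chac2, rose with radiation (3.58 ± 0.22 to 6.23 ± 1.12 FPKM, 0.65) and was at -0.01 with nintedanib (adjusted p = 0.967).

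More of the other transferases rose than fell. Of 9 tested, 5 rose and 1 fell with nintedanib, beside 19.7% and 22% of all genes. With radiation 5 rose and 0 fell, beside 8.04% and 9.9% of all genes. The mu-class genes Gstm2 (23 ± 1.91 to 38.5 ± 5.54 FPKM, 0.71), Gstm7 (0.92) and Gstm5 (0.49) rose with the drug, and Mgst2 (0.61), Gstm7 (0.65) and Gsto2 (0.55) with radiation. The endoplasmic reticulum peroxidase Gpx8 rose with nintedanib (33.3 ± 2.56 to 48.7 ± 1.08 FPKM, 0.54). Of 17 thioredoxin-linked genes, 5 rose and 5 fell with nintedanib: Sesn2, a stress-induced sestrin, went from 19.9 ± 1.18 to 4.09 ± 0.228 FPKM (-2.04), Txnl1 fell (-0.33) and the methionine sulfoxide reductase Msrb3 rose (0.38). With radiation 1 rose, Sesn3 (0.59), and 4 fell, among them the mitochondrial pair Txnrd2 (3.12 ± 0.348 to 1.64 ± 0.296 FPKM, -0.64) and Txn2 (26.6 ± 3.44 to 17.7 ± 1.86 FPKM, -0.56).

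Of 12 other tested genes of the pentose phosphate pathway and NADPH supply, 2 rose and 5 fell with nintedanib. Cytosolic isocitrate dehydrogenase Idh1 averaged 29.9 ± 1.31 FPKM in controls and 89.9 ± 6.03 under the drug (log2 fold change 1.56, SE 0.0853, adjusted p = 3.81e-07), while the folate enzymes Mthfd2 (42.7 ± 2.06 to 13.3 ± 2.33 FPKM, -1.63) and Mthfd1 (-0.78) fell. With radiation 2 fell, Mthfd1 (-0.46) and the pentose phosphate isomerase Rpia (4.03 ± 0.335 to 2.7 ± 0.246 FPKM, -0.44). The extracellular dismutase Sod3 rose with each treatment and with both, from 3.46 ± 0.445 FPKM in controls to 5.69 ± 0.0482 under nintedanib (0.59), 8.13 ± 0.668 after radiation (1.03) and 11.6 ± 1.5 under both (1.50). The heme transporter Slc48a1 rose with nintedanib (0.36).

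Of 14 detoxification and export genes, 6 rose and 2 fell with nintedanib. The epoxide hydrolase Ephx1 went from 19.2 ± 1.15 to 38.3 ± 2.87 FPKM (0.96), the UDP-glucose dehydrogenase Ugdh from 63.7 ± 2.81 to 91.4 ± 4.17 FPKM (0.51), and Trim16 fell from 24 ± 0.995 to 12.2 ± 0.711 FPKM (-0.92). With radiation Nqo2 (0.47) and the aldo-keto reductase Akr1b10 (0.42) rose and Trim16 fell (-0.39).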

How the data were processed

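RNA-seq libraries were made from 3 cultures in each of 4 groups of MC38 cells; groups and replicate numbers are those of the sample titles, and each value column carried 1 title. The authors deposited FPKM values for 54532 genes with gene lengths and coordinates, per the file headers. The submitters' processing notes name mm10 (GRCm38) as the build. Which aligner, counter, annotation release, strand setting and scaling per library were used is not given in these sources. Coordinates are those of the deposited table.

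Times gene length, 100% of the nonzero values of each library were whole multiples of 1 step within 0.01, and this gave fragment totals. Replicates differed by more than sampling noise (chi-square of 4.53 to 33.1 per gene over the 12 pairs), so each counted as 1 sample. The chi-square values cannot show whether libraries came from separate cultures. P-values rest on the spread between libraries within groups, pooled over the 4 groups.

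One limma 3.58.1 fit in R 4.3.3 covered all 12 libraries: log2(FPKM + 1), a mean per group, empirical Bayes with intensity trend, two-sided, 8 residual degrees of freedom, genes reaching 1 FPKM in 3 or more libraries, and a Benjamini-Hochberg threshold of 0.05. The code was tested on simulated data. Antioxidant genes could all be named, and in each branch of the wider list up to 3 genes with the smallest adjusted p for nintedanib or radiation. The genes, lists and tests were chosen with earlier results of these data known. Alternatives covered the pseudocount, filter, scaling, biotype, trend, groups fitted, voom on fragments, a replicate block and leaving out each library.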

Additional observations from a re-analysis of the deposited data

How the results depend on the processing

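Of 56 gene-by-comparison calls among the 32 antioxidant genes, 38 kept their direction and their side of the threshold in all alternative settings run, 18 lost the call in at least 1, and 0 changed sign; 24 of the 136 results that were not called passed in at least 1. The number of antioxidant genes called was 12 to 19 for nintedanib, 17 to 22 for the combination against control and 11 to 18 for the combination against radiation over the 22 settings, against 15, 19 and 14. For radiation, 6 genes were called, 3 to 8 over the 22 settings and 3 to 7 when 1 library was left out. For the combination against nintedanib, 2 were called, 0 with no filter on low values, 0 with the compared groups alone, 1 after rescaling to a common sum, and 0 to 3 when 1 library was left out. No antioxidant gene was called for the interaction in 21 settings.

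Over all genes, leaving out 1 library gave 1145 to 2606 calls for radiation (2334 in the full fit; 1333 and 1250 without control libraries 2 and 3, 1523 and 1145 without radiation libraries 1 and 2). It gave 269 to 652 for the combination against nintedanib (722 in the full fit, 357 and 453 without nintedanib libraries 2 and 3, 269 and 432 without combination libraries 2 and 3) and 0 to 5 for the interaction (1). For the combination against nintedanib 43 genes were called with the compared groups alone. The interaction called 0 genes with a pseudocount of 0.1, 12 with no filter, 3 with a filter of at least 5 FPKM, 4 after rescaling to a common sum, 2 with voom and 4 among protein-coding genes. Rescaling to a common sum moved the median interaction of all genes to -0.10, and turned the split of called genes from 2559 higher and 2860 lower to 3050 and 2034 for nintedanib, and from 44.8 to 69.7% higher for radiation (59.6% with voom on fragments). The median log2 fold change of all genes for nintedanib against control was -0.02 in the full fit and 0.04 with voom on fragments.

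Same-numbered libraries showed no shared deviation (correlations of -0.298 to 0.202 over 18 pairs). This cannot tell whether the numbers mark shared repeats, so the replicate block was kept as an alternative. With the replicate block, 444 genes were called for the combination against nintedanib and 0 for the interaction. Precision is limited by 3 libraries a group and, for Gsta4, by 2 to 45 fragments.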
